A study of Mus musculus with 15 samples.

Results

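Histone marks were examined at 10 genes that control thioredoxin and antioxidant defence in pancreatic islets: Txnip, Txn1, Nfe2l2, Keap1, Hmox1, Nqo1, Sod1, Sod2, Gpx1 and Cat. The genes were chosen by name for their function and not by their values, though with earlier results of these data known. All 10 were found among the 21951 protein-coding genes examined. Chromatin immunoprecipitation followed by sequencing (ChIP-seq) had been performed for H3K27Ac, a mark of active promoters and enhancers, and for H3K27Me3, a mark of Polycomb repression. Islets came from CBA males that were allocated at 10 weeks of age to regular diet (RD), high-fat diet (HFD) or the same high-fat diet with 0.8 mg/g of O304 (HFD-O304), a compound described as an activator of all forms of the energy sensor AMPK. The labels name no transgene or other allele. About 600 islets went into each ChIP, islets were pooled, and the 2 replicates of each mark and diet were merged before peak calling. Each mark and diet is thus represented by 1 peak list, no replicate error exists, and no difference between diets could be tested. Whole islets hold several cell types, so fewer cells with a mark and less of the mark per cell cannot be told apart.

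Thioredoxin reduces oxidised proteins and passes electrons to peroxiredoxins. TXNIP binds thioredoxin and inhibits it, and glucose induces the Txnip gene in beta cells through the carbohydrate response factors ChREBP and MondoA with their partner MLX. In a separate arm, KEAP1 holds the transcription factor NRF2, encoded by Nfe2l2, for degradation until oxidants or electrophiles release it to activate genes such as Hmox1 and Nqo1. Superoxide dismutases turn superoxide into hydrogen peroxide, which catalase and glutathione peroxidase remove. Beta cells are known for low amounts of the peroxide-removing enzymes.

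A promoter was taken as 1000 bp either side of the start site, the 5' end of the gene record, and a gene carried a mark there when a peak overlapped this window. The level of a peak is its mean pileup of fragments divided by the uniform background of its library, in fold. Levels are given with 95% exact Poisson intervals on the estimated number of fragments. The intervals cover counting error only, and the bounds of each peak were drawn by the peak caller on the same reads. The H3K27Ac lists rested on 83773042 to 95218072 kept fragments and the H3K27Me3 lists on 54166902 to 74870300. The lowest H3K27Ac level called was 2.40 on RD, 2.26 on HFD and 2.37 on HFD-O304, so the deepest list, HFD, reached lowest. For H3K27Me3 the lowest level called was 2.74 on RD, 3.10 on HFD and 2.97 on HFD-O304. A gene without a peak was below what the list could call and need not lack the mark. Of 8 beta cell markers 4 (Pdx1, Nkx6-1, Mafa and Ucn3) had H3K27Ac at the promoter in all diets. Ins1 had it on RD (2.86) and HFD (3.12) but not on HFD-O304, Slc30a8 on HFD-O304 alone (2.54), and Ins2 and Iapp in no diet at the 5' end of the gene record. In every diet H3K27Ac was at 0 of 4 alpha cell, 0 of 2 delta cell, 0 of 6 macrophage and 0 of 3 stellate cell and fibroblast markers, and at 1 of 6 acinar markers, Bhlha15. On RD, HFD and HFD-O304 it was at 0, 0 and 1 of 5 endothelial markers and at 0, 1 and 1 of 4 duct markers. Over all protein-coding genes the shares were 44.1%, 49.8% and 49.4%, and 42.5% in all diets. H3K27Me3 was at 8, 7 and 11 of the 38 markers, beside 6.63%, 8.46% and 8.87% of all genes. The only beta cell marker with it was Nkx6-1, on HFD-O304. These counts do not measure how pure the islets were.

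The promoters that bear on the results are shown first, as the 250 bases before the RefSeq start in the C57BL/6J reference (GRCm38.p6), read in the direction of transcription. The mice were CBA, whose own sequence was not used here. Capitals mark matches on either strand to 5 sets of letters: the antioxidant response element core TGACNNNGC, the carbohydrate response element pair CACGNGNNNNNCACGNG, the GC box GGGCGG, the CCAAT box CCAAT and the TATA box TATAAA. Txnip is shown for the carbohydrate pair, Nfe2l2 and Sod1 for the antioxidant core, and Cat and Nqo1 because they lacked H3K27Ac in some or all diets. The last sequence, which holds none of the 5, is the centre of the distal peak that Nqo1 had on RD alone. Its window was chosen after its values were seen.
Txnip promoter (chr3:96557707-96557956, plus strand): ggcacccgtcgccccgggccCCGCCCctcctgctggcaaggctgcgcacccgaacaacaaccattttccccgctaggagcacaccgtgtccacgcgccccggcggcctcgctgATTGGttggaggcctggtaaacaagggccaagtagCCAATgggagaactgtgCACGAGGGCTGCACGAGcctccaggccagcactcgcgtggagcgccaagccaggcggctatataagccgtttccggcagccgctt
Nfe2l2 promoter (chr2:75704664-75704913, minus strand): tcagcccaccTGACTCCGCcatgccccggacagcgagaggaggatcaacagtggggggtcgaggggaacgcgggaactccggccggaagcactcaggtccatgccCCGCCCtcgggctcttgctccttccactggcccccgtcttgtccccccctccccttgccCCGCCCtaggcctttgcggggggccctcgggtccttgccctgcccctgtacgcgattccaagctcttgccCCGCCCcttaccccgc
Sod1 promoter (chr16:90220512-90220761, plus strand): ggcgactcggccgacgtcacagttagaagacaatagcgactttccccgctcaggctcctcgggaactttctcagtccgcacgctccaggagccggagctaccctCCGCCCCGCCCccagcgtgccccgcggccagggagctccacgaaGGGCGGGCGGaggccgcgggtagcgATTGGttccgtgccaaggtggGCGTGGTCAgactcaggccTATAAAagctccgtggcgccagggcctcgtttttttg
Cat promoter (chr2:103485154-103485403, minus strand): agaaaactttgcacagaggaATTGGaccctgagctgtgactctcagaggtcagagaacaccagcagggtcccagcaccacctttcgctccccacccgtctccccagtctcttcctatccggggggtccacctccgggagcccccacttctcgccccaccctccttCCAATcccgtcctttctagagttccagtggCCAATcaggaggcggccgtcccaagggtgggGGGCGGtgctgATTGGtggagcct
Nqo1 promoter (chr8:107403206-107403455, minus strand): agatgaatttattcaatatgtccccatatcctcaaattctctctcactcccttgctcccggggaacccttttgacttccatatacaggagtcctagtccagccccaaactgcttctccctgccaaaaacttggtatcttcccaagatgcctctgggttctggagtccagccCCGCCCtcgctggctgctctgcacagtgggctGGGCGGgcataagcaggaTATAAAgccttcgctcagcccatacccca
Nqo1 intronic peak (chr8:107396329-107396628, minus strand): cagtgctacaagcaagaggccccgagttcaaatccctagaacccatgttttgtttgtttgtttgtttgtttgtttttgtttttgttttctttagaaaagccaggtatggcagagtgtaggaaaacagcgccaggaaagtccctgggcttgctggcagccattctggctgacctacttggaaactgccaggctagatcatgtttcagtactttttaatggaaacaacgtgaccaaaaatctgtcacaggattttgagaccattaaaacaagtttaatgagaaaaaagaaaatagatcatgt

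H3K27Ac marked the promoters of 8 of the 10 genes on RD, 9 on HFD and 8 on HFD-O304. Over all protein-coding genes the share was 44.1% on RD, 49.8% on HFD and 49.4% on HFD-O304. Txnip, Txn1, Nfe2l2, Keap1, Hmox1, Sod1, Sod2 and Gpx1 were marked in all 3 diets, a pattern of 42.5% of all genes. Cat was marked on HFD alone, as were 2.1% of all genes. Nqo1 was marked in none of the diets, as were 47.5% of all genes. Cat was thereby the only one of the 10 with a peak on HFD and not on RD, a change seen at 6.61% of all genes. None of the 10 had a peak on RD and not on HFD, the reverse change, which was seen at 0.829% of all genes. H3K27Me3 was at the promoter of 0 of the 10 genes in any diet. Over all genes its share was 6.63% on RD, 8.46% on HFD and 8.87% on HFD-O304.

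**Figure D1:**
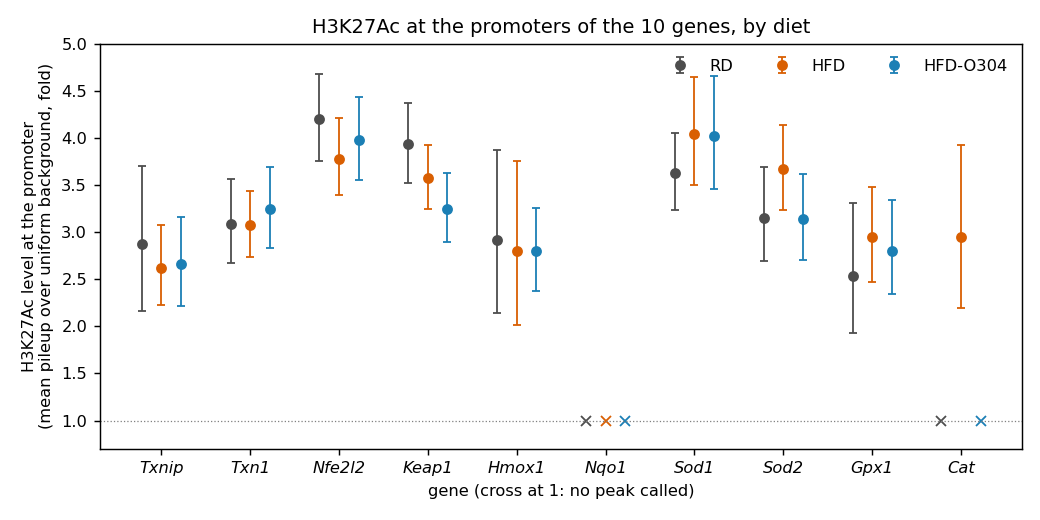
H3K27Ac level at the promoter (mean pileup over uniform background, fold) for the 10 genes on RD, HFD and HFD-O304; points are the strongest peak of each merged list, bars are 95% counting intervals, and a cross at 1 marks a gene with no peak called. Nfe2l2 stood highest on RD at 4.20 and Gpx1 lowest at 2.54, Nqo1 has crosses in every diet and Cat has a point on HFD alone.

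Txnip (ENSMUSG00000038393.14, chr3:96557957-96561883, plus strand) carried one of the weaker H3K27Ac peaks of the set, and the weakest of those called on both high-fat diets. Its level was 2.87 (2.17 to 3.70) on RD, 2.63 (2.23 to 3.08) on HFD and 2.66 (2.22 to 3.16) on HFD-O304, and the 3 intervals overlapped. These levels lay at the 26.3rd, 12.8th and 9.98th percentile of all acetylated promoters of the same diet. The −log10 q of the peak was 4.48, 3.99 and 3.51, so that a minimum of 5 would remove Txnip from the marked genes in every diet. The called extent of the peak was less alike, with edges that the caller drew on a weak peak of 1 list per diet. Among genes with a peak in both diets, 21.7% were past 1.5 times wider on HFD than on RD. For HFD-O304 against RD the share was 19.8%. The Txnip peak was 445 bp wide on RD, 1158 bp on HFD and 1072 bp on HFD-O304. On RD it began 114 bp downstream of the start site and ended at 558 bp, whereas on HFD it began 683 bp and on HFD-O304 640 bp upstream of it. The downstream edges lay close together, at 474 bp on HFD and 431 bp on HFD-O304. The called peaks of HFD and HFD-O304 therefore covered the sequence before the start site that is shown above, and that of RD did not.

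The carbohydrate response element pair of the Txnip promoter, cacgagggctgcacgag, begins 85 bases before the start (chr3:96557872-96557888). All 17 of its bases lay inside the H3K27Ac peak on HFD and on HFD-O304, and 0 of them on RD. The RD peak began 114 bp downstream of the start site. The pair lay closer to that edge than the RD fragment size of 270 bp. It was outside the called RD peak and need not lack the mark there. The counts of bases therefore do not show a difference between diets in the mark over the pair. The letters of the pair were found in 14 of 20150 RefSeq promoters, or 0.0695%, and in no other of the 9 genes of the set with a RefSeq promoter. A match of letters is not a measurement of binding. The genes closest to Txnip in their H3K27Ac levels over the 3 diets, by Euclidean distance on the log2 scale among 9333 genes marked in all of them, were Pum3 (distance 0.032), D130043K22Rik (0.033) and Tcirg1 (0.0354).

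**Figure D2:**
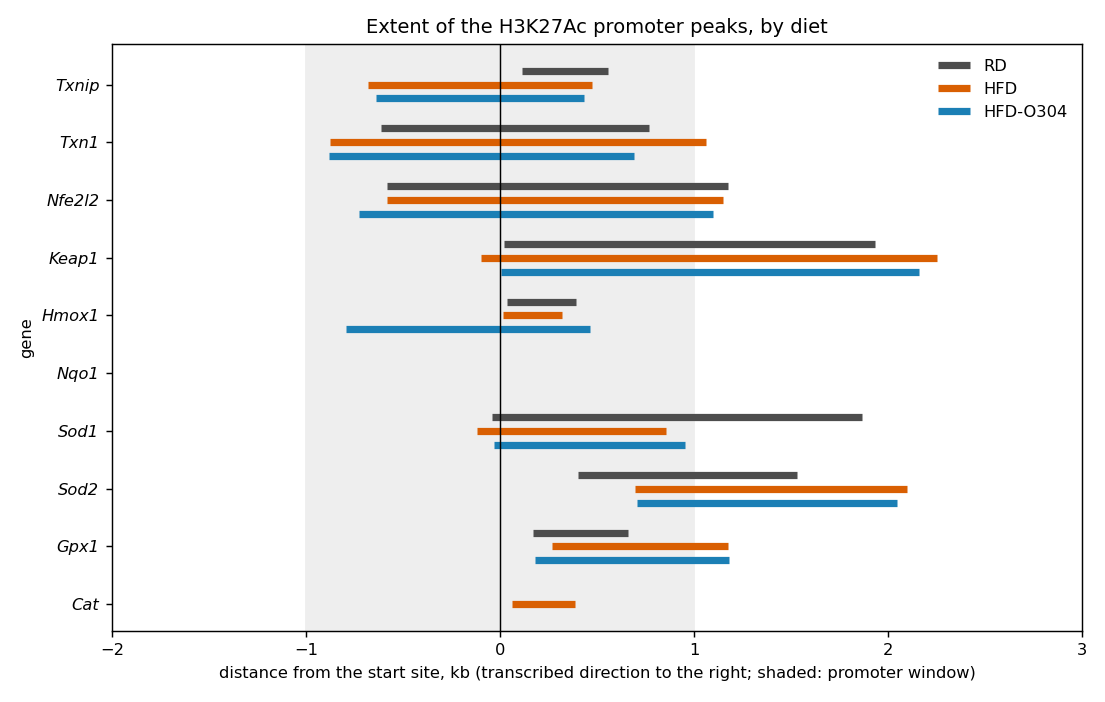
Extent of the H3K27Ac promoter peaks of the 10 genes relative to the start site, in kb, with 1 line per diet and the promoter window shaded. The Txnip peak reaches upstream of the start site on HFD and HFD-O304 but not on RD, the Hmox1 peak on HFD-O304 alone, and the Sod1 peak is longest on RD.

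Txn1 (ENSMUSG00000028367.5, chr4:57943373-57956411, minus strand), which encodes cytosolic thioredoxin, had an H3K27Ac level of 3.09 (2.67 to 3.56) on RD, 3.08 (2.74 to 3.44) on HFD and 3.24 (2.84 to 3.69) on HFD-O304. The levels lay within each other's intervals. Its peak spanned the start site in every diet and measured 1379 bp on RD, 1935 bp on HFD and 1573 bp on HFD-O304. No second H3K27Ac peak was called within 20 kb of Txn1. The gene for the inhibitor and the gene for its target thus both carried the mark in all diets. The level was higher at Txn1 in each, with intervals that overlapped those of Txnip.

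Nfe2l2 (ENSMUSG00000015839.6, chr2:75675513-75704641, minus strand) had the strongest promoter peak of the set on RD. Its level was 4.20 (3.76 to 4.68) on RD, 3.78 (3.39 to 4.22) on HFD and 3.98 (3.56 to 4.43) on HFD-O304. On RD it reached the 93.7th percentile of acetylated promoters. The widths of 1759, 1732 and 1826 bp were nearly alike. The peak contained all 9 bases of the antioxidant core of the promoter in every diet. NRF2 is known to act on such elements, and whether it was bound here was not measured.

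Keap1 (ENSMUSG00000003308.15, chr9:21229730-21239361, minus strand) stood next on RD and lower in the other diets. Its level was 3.93 (3.52 to 4.37) on RD, 3.58 (3.24 to 3.93) on HFD and 3.25 (2.90 to 3.63) on HFD-O304. The HFD-O304 level was 0.827 times that of RD (95% Clopper-Pearson interval of the ratio 0.707 to 0.966), at the 1.24th percentile of this ratio over all genes. Of the 24 ratios that could be formed for the set it was the only one whose interval left out 1. The intervals were not adjusted for that number and hold no spread between animals. The Keap1 peak lay almost wholly downstream of the start site, reaching 1934 bp into the gene on RD, 2251 bp on HFD and 2160 bp on HFD-O304.

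Hmox1 (ENSMUSG00000005413.8, chr8:75093621-75100589, plus strand), which encodes the haem-degrading enzyme haem oxygenase 1, had levels of 2.92 (2.14 to 3.88) on RD, 2.80 (2.02 to 3.75) on HFD and 2.80 (2.37 to 3.26) on HFD-O304, with intervals that overlapped. Its width was not alike. The peak measured 360 bp on RD, 303 bp on HFD and 1258 bp on HFD-O304. It began 33 bp and 16 bp downstream of the start site on RD and HFD, and 793 bp upstream of it on HFD-O304. The RD and HFD peaks were near the shortest that could be called, 270 bp and 269 bp in these lists.

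Nqo1 (ENSMUSG00000003849.8, chr8:107388225-107403206, minus strand), which encodes a quinone reductase, had no H3K27Ac and no H3K27Me3 peak at its promoter in any diet. On RD alone a peak of 987 bp (chr8:107395985-107396971) was called in an intron, centred 6.73 kb into the gene. Its level was 2.67 (2.21 to 3.20) with a −log10 q of 3.41, and 33.7% of its bases were repeat-masked. The part that the repeats played in this call was not tested. The 300 bases at its centre are the last sequence shown above.

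Sod1 (ENSMUSG00000022982.10, chr16:90220754-90226329, plus strand) encodes the copper and zinc superoxide dismutase of the cytosol. Its level was 3.63 (3.24 to 4.06) on RD, 4.05 (3.50 to 4.65) on HFD and 4.02 (3.46 to 4.66) on HFD-O304. It was the strongest promoter of the set in both high-fat groups, with Nfe2l2 next and inside its interval in each. The HFD and HFD-O304 intervals overlapped that of RD. The peak was shorter there, at 971 bp on HFD and 987 bp on HFD-O304 against 1912 bp on RD. All 3 peaks began within 117 bp upstream of the start site and differed at the downstream edge, which lay at 1867 bp on RD, 853 bp on HFD and 952 bp on HFD-O304. Of the 9 bases of the antioxidant core in its promoter, 5 lay inside the peak on RD, 9 on HFD and 0 on HFD-O304. The peaks began 44 bp, 117 bp and 34 bp upstream of the start site in these diets. Those edges lie closer together than the fragment size of 269 or 270 bp. The counts of bases therefore do not show a difference between diets in the mark over the core.

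Sod2 (ENSMUSG00000006818.5, chr17:13006846-13040063, plus strand) encodes the manganese superoxide dismutase of mitochondria. Its level was 3.16 (2.69 to 3.69) on RD, 3.67 (3.24 to 4.14) on HFD and 3.14 (2.71 to 3.62) on HFD-O304, highest on HFD with overlapping intervals. The HFD-O304 level was 0.856 times that of HFD (0.707 to 1.04), the lowest ratio of the set in that comparison. The peaks began 400 bp, 696 bp and 703 bp downstream of the 5' end of the gene record. They covered the later start that RefSeq uses, at position 13007839. They measured 1130 bp, 1403 bp and 1343 bp.

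Gpx1 (ENSMUSG00000063856.7, chr9:108338903-108340343, plus strand) encodes the main glutathione peroxidase of the cytosol. Its level was 2.54 (1.93 to 3.31) on RD, 2.95 (2.47 to 3.48) on HFD and 2.80 (2.34 to 3.34) on HFD-O304. The RD peak, at the 4.60th percentile of acetylated promoters, was the weakest promoter peak of the set. It measured 490 bp on RD, 908 bp on HFD and 999 bp on HFD-O304. All 3 lay inside the gene record, starting 171 bp, 268 bp and 181 bp from its 5' end. RefSeq uses a later start, at position 108339080. The RD peak covered that position, and the HFD and HFD-O304 peaks began after it. These edges lie closer together than the fragment size of 269 or 270 bp and do not show a difference between diets.

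Cat (ENSMUSG00000027187.10, chr2:103453849-103485160, minus strand), which encodes the peroxisomal enzyme catalase, had a promoter peak on HFD only. The peak was 324 bp wide, lay 63 to 386 bp downstream of the start site and had a level of 2.95 (2.20 to 3.93) with a −log10 q of 5.96. It rested on about 49 fragments. RD and HFD-O304 had no peak there, at lists whose lowest called levels were 2.40 and 2.37. The lower bound of the HFD interval was below both. The depth of these lists therefore does not show how far the Cat promoter differed between diets.

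Set side by side, 8 genes had a promoter level in both diets of each pair. The median ratio of HFD to RD was 0.978 for the set and 1.05 for 9492 genes. For HFD-O304 to HFD it was 0.995 for the set and 1.01 for 10321 genes, and for HFD-O304 to RD 0.977 for the set and 1.06 for 9440 genes. Measured instead as signal above background summed over the window, the medians of the set against RD lay above 1, at 1.03 on HFD and 1.15 on HFD-O304. In each pair 3 of the 8 were above 1, against 66.5%, 55.4% and 71.1% of all genes with a peak in both diets. HFD stood above RD at Sod1, Sod2 and Gpx1, with ratios of 1.12, 1.16 and 1.16. It stood below RD at Nfe2l2 (0.900), Keap1 (0.909), Txnip (0.914), Hmox1 (0.962) and Txn1 (0.995). The interval of each of these 8 ratios included 1.

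No gene of the set differed in level by a log2 ratio past 0.32, in either direction, in any pair. The shares of all genes given here, and those for width, are over genes with a peak in both diets of the pair. The share past that size was 6.84% higher and 0.611% lower on HFD than on RD. For HFD-O304 it was 2.01% higher and 1.24% lower than HFD, and 7.91% higher and 0.583% lower than RD. In peak width, 2 genes were past 1.5 times wider on HFD than on RD, Txnip (2.60 times) and Gpx1 (1.85 times), as were 21.7% of all genes, and Sod1 was past it in the narrower direction (0.508 times), as were 4.42%. Hmox1 was wider on HFD-O304 than on HFD (4.15 times, against a background of 8.75%) and none of the set was narrower (background 11.8%). Against RD, Hmox1 (3.49 times), Txnip (2.41 times) and Gpx1 (2.04 times) were wider on HFD-O304, as were 19.8% of all genes, and Sod1 was narrower (0.516 times), as were 5.99%. The comparisons with RD share the RD list, and the comparisons of the high-fat groups share the HFD or HFD-O304 list, so their values are not independent. The level is a mean over the peak, and a peak that reaches further can have a lower mean.

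**Figure D3:**
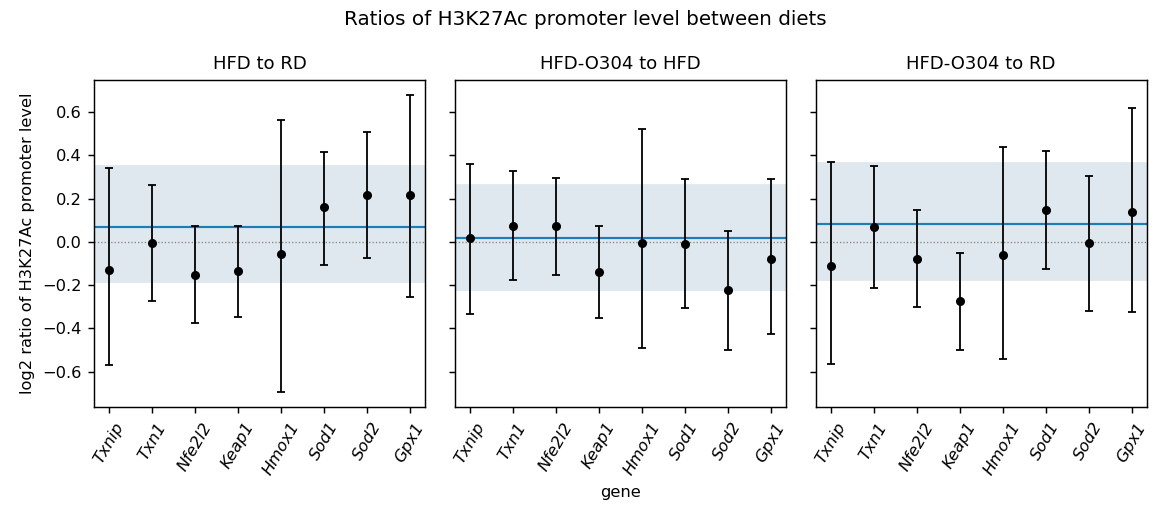
Log2 ratios of H3K27Ac promoter level between diets for the 8 genes with a peak in both; points are the ratios, bars their 95% counting intervals, the shaded band holds the 5th to 95th percentile over all genes and the blue line their median. In the panel of HFD-O304 to RD the bar of Keap1, at a ratio of 0.827, is the only one that does not reach the dotted line of no difference.

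Around the genes, out to 20 kb either side of the gene body, 15 H3K27Ac peaks were called on RD, 16 on HFD and 14 on HFD-O304. They formed 18 regions, of which 13 were present in all 3 diets, 1 in 2 diets and 4 in 1 diet. Of these regions 9 were the genes' own promoters given above, with 8 in all 3 diets and 1 in 1 diet. Promoters of other genes made up 3, each in all 3 diets. The other 6 were distal, with 2 in all 3 diets, 1 in 2 diets and 3 in 1 diet. The regions of all genes were not counted in this way, so no share stands beside these numbers. Of the 10 genes, 5 on RD, 4 on HFD and 4 on HFD-O304 had a peak outside their own promoter, against 45.3%, 52.7% and 50.9% of all genes. These genes were Txnip, Nfe2l2, Sod2 and Gpx1 in every diet and Nqo1 on RD. At Txn1, Keap1, Hmox1, Sod1 and Cat no further H3K27Ac peak was called.

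Txnip had the largest number of such peaks. On RD alone a peak of 818 bp lay 3.13 kb upstream of the start site, with a level of 2.49 (2.00 to 3.05), a −log10 q of 2.50 and 39.7% repeat-masked bases. On HFD a peak of 1697 bp with a level of 2.57 (2.24 to 2.93) covered the later part of the gene, and on HFD-O304 a peak of 276 bp with a level of 2.63 (1.82 to 3.71) lay at its end. On RD no peak was called there. A region about 12 kb downstream of the start site was marked in all 3 diets, at 2.64 (2.20 to 3.13), 2.52 (2.19 to 2.88) and 2.54 (2.09 to 3.04). The promoter of the predicted gene Gm16253 was likewise marked in all of them, at 2.55, 2.55 and 2.99. These levels outside the Txnip promoter lay between 2.49 and 2.99.

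**Figure D4:**
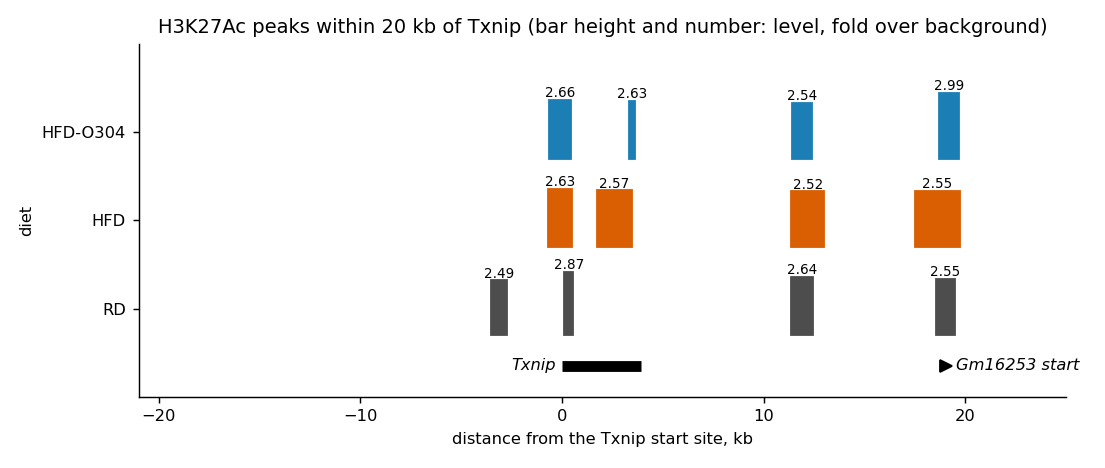
H3K27Ac peaks within 20 kb of Txnip on RD, HFD and HFD-O304, by distance from its start site in kb; the height of a bar and the number over it give the level in fold over background, and the black line is the gene. The bar 3.13 kb upstream appears on RD alone, and a bar over the later part of the gene on HFD and HFD-O304.

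Most other neighbouring peaks lay at or near promoters of other genes. The promoter of Hnrnpa3, an RNA-binding protein gene that starts within 20 kb of the 3' end of Nfe2l2, had levels of 4.98 on RD, 4.58 on HFD and 4.87 on HFD-O304. Usp4, a deubiquitinase gene 9 kb downstream of the Gpx1 start site, had levels of 3.19, 3.54 and 3.01. A peak 14.5 kb upstream of Sod2 lay about 1.8 kb inside Wtap, which encodes a subunit of the RNA N6-methyladenosine methyltransferase. Its level was 3.38 (2.90 to 3.94) on RD, 4.51 (4.04 to 5.04) on HFD and 4.67 (4.16 to 5.24) on HFD-O304. Both high-fat groups stood above RD there, by 1.33 times (1.10 to 1.61) on HFD and 1.38 times (1.14 to 1.68) on HFD-O304. Of 16 ratios formed for H3K27Ac regions outside the promoters of the set, these 2 had intervals that left out 1. They set the same region against the same RD peak and are not independent. The intervals were not adjusted for the number of ratios and hold no spread between animals. The share over all regions outside promoters was not computed. The Sod2 promoter itself had ratios of 1.16 (0.95 to 1.42) and 0.995 (0.801 to 1.23).

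H3K27Me3, not called at the promoters of the set, was called near 2 of the genes. A peak within 20 kb was present for 1 gene on RD, 2 on HFD and 2 on HFD-O304, against 26.9%, 26.7% and 33% of all genes. Near Keap1 a peak lay 5.2 kb upstream, in an exon of S1pr5, a sphingosine 1-phosphate receptor gene, with a level of 3.41 (2.83 to 4.05) on HFD and 2.97 (2.29 to 3.73) on HFD-O304. No peak was called there on RD. The HFD-O304 peak had the lowest level and the lowest −log10 q (2.19) of its whole list. Near Sod2 the H3K27Me3 peaks lay beyond its 3' end toward the receptor gene Gpr31b, with 2 on RD, 1 on HFD and 3 on HFD-O304. On HFD-O304 the stretch nearest to the gene was 3786 bp wide with a level of 3.29 (2.97 to 3.64), against 937 bp at 3.10 on RD and 386 bp at 3.47 on HFD. A further H3K27Me3 peak of 580 bp on HFD-O304, at a level of 3.06 (2.28 to 3.96), lay in the last part of Sod2. It overlapped in part the place where HFD alone had an H3K27Ac peak of 1024 bp at a level of 2.41 (2.01 to 2.88). The −log10 q was 2.47 for this H3K27Me3 peak and 2.78 for this H3K27Ac peak. The lowest levels called in their lists were 2.97 and 2.26. Both calls were thus near the limit and do not show an exchange of marks between diets.

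A wider list of 58 genes of the same pathways, which leaves out the 10, was examined in the same way. H3K27Ac was at the promoter of 35 of them on RD, 42 on HFD and 42 on HFD-O304, beside 44.1%, 49.8% and 49.4% of all genes. The 35 marked on RD were marked in all 3 diets, and 15 were marked in none, beside 42.5% and 47.5% of all genes. Among these 15 were Mlxipl, the gene for ChREBP, and Txnrd1, the cytosolic thioredoxin reductase gene, both at the 5' end of the gene record. Of the 58, 7 (12.1%) had a peak on HFD and not on RD, against 6.61% of all genes, and 0 had the reverse, against 0.829%. With lists of equal size 4 (6.90%) did so, against 4.40% of all genes.

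The 8 partners and regulators of Nfe2l2, which include the small MAF genes, Bach1 and Cul3, were marked in all 3 diets. The share of all genes with that pattern was 42.5%. At a −log10 q of at least 5, Bach1 and Cul3 were no longer marked on RD. Of the 3 glucose-sensing factors that act on the Txnip promoter, Mlx and Mlxip were marked in all diets. Of 14 genes of the glutathione system 3 were marked on RD, 7 on HFD and 6 on HFD-O304, beside 44.1%, 49.8% and 49.4% of all genes. Those added were Gss (2.86 on HFD and 2.79 on HFD-O304), the glutathione synthetase gene, Gsr (2.89 and 3.16), the glutathione reductase gene, the peroxidase gene Gpx3 (2.39 and 2.62), and its relative Gpx7 (2.74 on HFD alone). The mitochondrial peroxiredoxin gene Prdx3 (3.34 and 2.86), the copper chaperone gene Ccs of Sod1 (2.46 and 2.61) and the biliverdin reductase gene Blvrb (2.49 and 2.88) were also marked on HFD and HFD-O304 and not on RD. The mitochondrial thioredoxin reductase gene Txnrd2 was marked on HFD-O304 alone, at 2.59. Several of these calls were near the limit. With lists of equal size Gpx3, Ccs and Blvrb were no longer marked on HFD, and at a −log10 q of at least 5 Gpx3, Gpx7, Ccs, Blvrb and Txnrd2 were marked in no diet. The HFD level of Gpx3 was below the lowest level called on RD, 2.40.

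**Figure D5:**
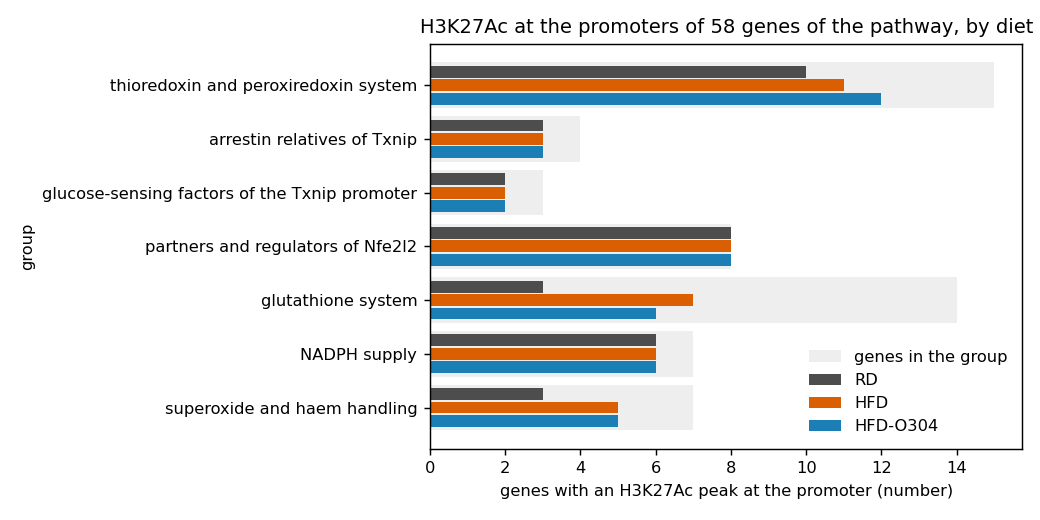
Number of genes with an H3K27Ac peak at the promoter on RD, HFD and HFD-O304, by group of the 58 pathway genes; the pale bar is the size of each group. The glutathione system has 3, 7 and 6 of 14 genes marked, and the partners and regulators of Nfe2l2 have 8 of 8 in each diet. The shares over all genes are 44.1%, 49.8% and 49.4%.

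Among pathway genes marked in both diets of a pair, a few passed the same log2 ratio in level and are named after their values were seen. The shares beside them are over all genes marked in both diets of the pair. On HFD 3 of 35 were higher than on RD and 0 lower, beside 6.84% and 0.611%. On HFD-O304 0 of 41 were higher and 2 lower than on HFD, beside 2.01% and 1.24%, and 2 of 35 were higher and 0 lower than on RD, beside 7.91% and 0.583%. Gclm, a subunit gene of the rate-limiting enzyme of glutathione synthesis, stood at 3.61 on RD, 5.12 on HFD and 4.02 on HFD-O304. It passed that size on HFD over RD (1.42 times) and on HFD-O304 under HFD (0.785 times). Glrx3 (1.26 times) and Cul3 (1.26 times) were higher on HFD than on RD, and Prdx6 was lower on HFD-O304 than on HFD (0.782 times). Arrdc1 (1.32 times) and Pgd (1.28 times) were higher on HFD-O304 than on RD. H3K27Me3 was at the promoter of 1 of the 58 on RD, 2 on HFD and 3 on HFD-O304, beside 6.63%, 8.46% and 8.87% of all genes. It was at Mlxipl in every diet, at levels of 2.74, 3.31 and 3.36 on RD, HFD and HFD-O304. The lowest levels called in these lists were 2.74, 3.10 and 2.97. The RD call at Mlxipl was thus the weakest of its list, and it ended at a common fold cutoff. The mark was also at Mgst1 on HFD and HFD-O304 (3.13 and 3.14) and at Glrx2 on HFD-O304 alone (3.22).

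The promoter sequences of the set differed in CpG content, given as the observed number of CpG over that expected from the base composition. The 9 genes with a RefSeq promoter were examined. Nqo1 (0.304) and Cat (0.383), the genes without H3K27Ac in all diets or on RD and HFD-O304, had the lowest ratios, and Txn1 followed at 0.587. The other 6 had a ratio of 0.6 or more and all 6 were marked in every diet, with Sod1 (0.944) and Txnip (0.795) the highest. Over all RefSeq promoters with a ratio of 0.6 or more, 78.0% were marked on RD, 84.9% on HFD and 84.2% on HFD-O304. Under 0.6 the shares were 20.1%, 25.2% and 25.0%. Other properties that go with CpG content were not compared.

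Of the remaining letters searched, the antioxidant core was present in the promoters of 2 of the 9 genes, Nfe2l2 and Sod1, and in 10.6% of all RefSeq promoters. The GC box was present in 8 of the 9 and in 44.1% of all. The CCAAT box was found at Txnip, Sod1, Sod2 and Cat, 4 of the 9, against 35.0% of all. The TATA box was found at Txn1, Nqo1 and Sod1, 3 of the 9, against 11.2% of all. In the 250 bases examined Nqo1 held no match to the antioxidant core, which says only that these letters are not in that window.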

How the data were processed

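The authors mapped 50 bp paired reads with Bowtie2 to GRCm38 (Ensembl 96), merged the 2 replicates of each mark and diet and ran the broad mode of MACS 2.1.2. The q cutoff was 0.01 per the file headers, whereas the methods print a looser option, no control was given and the effective genome size was 1.87e+09. The 3 input samples of the 15 were not used. The deposited lists hold the mean pileup of each peak, a coverage signal in fragments per base. They also hold the −log10 q, computed by the authors' caller against a uniform background, and the fold enrichment, a ratio that the authors' caller forms with 1 added to both terms. Folds in the lists implied backgrounds 0.452% to 2.28% above those computed here from kept fragments and the rounded fragment size. Duplicates made up 17.2% to 18.4% of H3K27Ac and 45.7% to 56.9% of H3K27Me3 fragments. The methods give 9 weeks on the diets, whereas the authors' results give 10 weeks for the islets that were sequenced.

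Level was pileup over that background, for the strongest peak overlapping the window by at least 1 bp, with genes of GENCODE release 21 (python 3.11.15, pandas 2.3.3, scipy 1.17.1, samtools 1.23.1). Fragments behind a peak were estimated as pileup times width over fragment size. Peak matching was tested on simulated data. The genes and lists were chosen with earlier results of these data known. Named were the 10 genes, pathway genes whose H3K27Ac call differed between diets or that carried H3K27Me3, neighbours with a marked promoter, the 3 genes most like Txnip, and others said to be chosen after their values were seen. Promoter sequences came from RefSeq (GRCm38.p6), which matched 9 of the 10 genes. The one not matched was Hmox1. Alternatives changed the threshold, window, overlap, start sites and scale.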

Additional observations from a re-analysis of the deposited data

How the results depend on the processing

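No paired analysis was possible because every list joins both replicates of its diet. Leaving out a replicate was not possible either. Of 114 values under alternatives 84 kept within their limit and 30 moved. The cause of the moves was not tested. The limit was wide: a fall from 9 to 6 marked genes on HFD, with an overlap of at least 500 bp, counted as kept. Counts of 0 for H3K27Me3 at the promoters of the set could not fall under stricter settings. Pileup scaled to kept fragments differs from level only by the fragment size of 269 or 270 bp. The widest peak gave the same median level ratio as the strongest in each pair. The 84 kept values are therefore not a measure of robustness. Of the counts of promoters with H3K27Ac, those over the set fell to 5 on RD and 5 on HFD-O304 when a −log10 q of at least 5 was required (HFD kept 8), and to 5, 6 and 7 on RD, HFD and HFD-O304 with an overlap of at least 500 bp. Txnip left the set in every diet under that q, Hmox1 and Gpx1 on RD and HFD-O304, and Cat stayed on HFD. H3K27Ac peaks within 20 kb fell to 8, 11 and 9 on RD, HFD and HFD-O304 under that q, to 10, 11 and 9 on RD, HFD and HFD-O304 within 5 kb, and to 10, 10 and 9 when nearest start sites were required. Within 50 kb they numbered 26 on RD, 29 on HFD and 28 on HFD-O304. H3K27Me3 peaks near the set became 0, 0 and 1 on RD, HFD and HFD-O304 under that q, 0, 1 and 2 within 5 kb, 7, 6 and 13 within 50 kb, and 0 in each when nearest start sites were required. They were 2, 2 and 3 with lists of equal size. Pathway promoters with H3K27Me3 became 0 in each diet under that q, and 0, 2 and 3 at a common fold cutoff. The median ratio of HFD-O304 to RD was 1.15 in summed signal above background in place of level, against 0.977, the opposite side of 1 (as for HFD to RD, 1.03 against 0.978), and the median width ratio was 1.13 in bases covered within 5000 bp against 1.16. With lists of equal size the pathway genes marked on HFD and not on RD numbered 4 (6.90%, against 4.40% of all genes) in place of 7 (12.1%, against 6.61%). At a −log10 q of at least 5 the number was again 7 (12.1%, against 10.7%), but not the same genes. They were Prdx3, Bach1, Cul3, Gss, Gsr, Pgd and Blvra. At that q 1 pathway gene had the reverse change, against 1.06% of all genes. Depth limits the calls at weak promoters, and a peak near the limit can be missed in the shallower list.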
